A study of Oryza sativa Japonica Group with 8 samples.

Results

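Divergent neighbours are adjacent loci transcribed away from each other, one on the minus strand to the left and the other on the plus strand to the right, so that the stretch between them lies upstream of both. Pairs were taken where both loci were at least 300 bp long, did not overlap, lay on the same chromosome, and had a plus start 1 to 1000 bp beyond the minus end. This gave 1379 pairs, built from 1348 minus loci and 1349 plus loci. Their 2697 loci make up 7.07% of the 38124 loci of at least 300 bp, out of 41805 loci in all. The choice among the listed loci used positions and lengths, not transcript levels. Each listed locus of at least 300 bp reached 1 FPKM in some library, however. A locus below that level throughout could not be in a pair, so membership is not independent of levels. Positions follow Release 7 of the MSU rice annotation. The gap is the distance between the ends of assembled loci, which need not be the sites where transcription starts.

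Levels came from strand-specific RNA sequencing of polyadenylated RNA from greenhouse-grown japonica rice (Oryza sativa), untreated as far as the labels say and with no cultivar or plant age given. There were 8 groups with 1 library each: flower buds collected before flowering, flowers taken on the day of flowering, flag leaves and roots each sampled before and after flowering, milk grains (unripe grains whose contents are still fluid) and mature seeds. Leaf and root samples each mixed several stages of their period. With 1 library a group no difference has a replicate check and no test was run, so all values are descriptions. Levels are the authors' FPKM, a measure of fragments scaled by locus length and by mapped reads, and read totals are unknown. Since the table pairs its identifiers with no gene names, tissue markers were not checked and no function is given to a locus.

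The library labelled roots sampled after flowering stood apart from its label. Over loci of at least 300 bp, which are not replicates, Spearman's rho of its levels was 0.97 against the later leaf library and 0.93 against the earlier one, but 0.68 against the earlier root library. The median r and level ratio over all divergent pairs, the counts of high and low r and the share with a common peak library are given with and without it.

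In plants, as in animals and yeast, a promoter region between divergent genes can drive transcription in both directions, because a nucleosome-depleted stretch may hold the core promoters of both. Such regions are called bidirectional promoters. In several genomes, rice among them, divergent genes have been studied for whether their transcripts rise and fall together across tissues. Neighbours on the same strand do not share a promoter region in this way, and convergent neighbours meet at their 3′ ends, so both serve here as a comparison at the same gap.

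Divergent gaps were most often over 100 and up to 200 bp, a range holding 235 pairs. There were 163 pairs at 1 to 100 bp and 178 at 201 to 300 bp, and the 7 further steps of 100 bp up to 1000 bp held between 99 and 126 each. The median gap was 395 bp. The same limits gave 5862 same-strand pairs, of which 769 lay 1 to 100 bp apart, and 2509 convergent pairs, of which 367 did. In 1058 divergent pairs no other locus of any length touched the gap, and in 321 pairs another did. In 118 pairs a locus was shared with another divergent pair, 59 loci being in 2 pairs and 1 locus in 3. Per 1000 loci of at least 300 bp, chromosome 3 held the most pairs (42.1) and chromosome 9 the fewest (27.3).

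Members were about as abundant as other loci but were not alike across gaps. Averaged over the 8 libraries, the median member stood at 7.92 FPKM and the median of the other 35427 loci of at least 300 bp at 7.93 FPKM. At gaps of over 100 to 250 bp the median was 15.7 FPKM, against 5.08 FPKM at 1 to 100 bp, 7.09 FPKM at over 250 to 500 bp, 5.20 FPKM at over 500 to 750 bp and 8.32 FPKM at over 750 to 1000 bp. Loci at gaps of over 100 to 250 bp were also the most broadly detected: 424 of 670 (63.3%) reached 1 FPKM in all 8 libraries. That share was 44.2%, 45.2%, 40.1% and 46.4% in the other gap ranges from short to long, 43.9% among other loci and 56.3% among loci in convergent pairs. The 2 loci of a pair were both this broad in 158 of 335 pairs (47.2%) at over 100 to 250 bp, and in 385 of all 1379 pairs (27.9%). Of all single members, 48.7% were this broad, and whether pairs exceed what single-locus shares give was not tested.

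**Figure D1:**
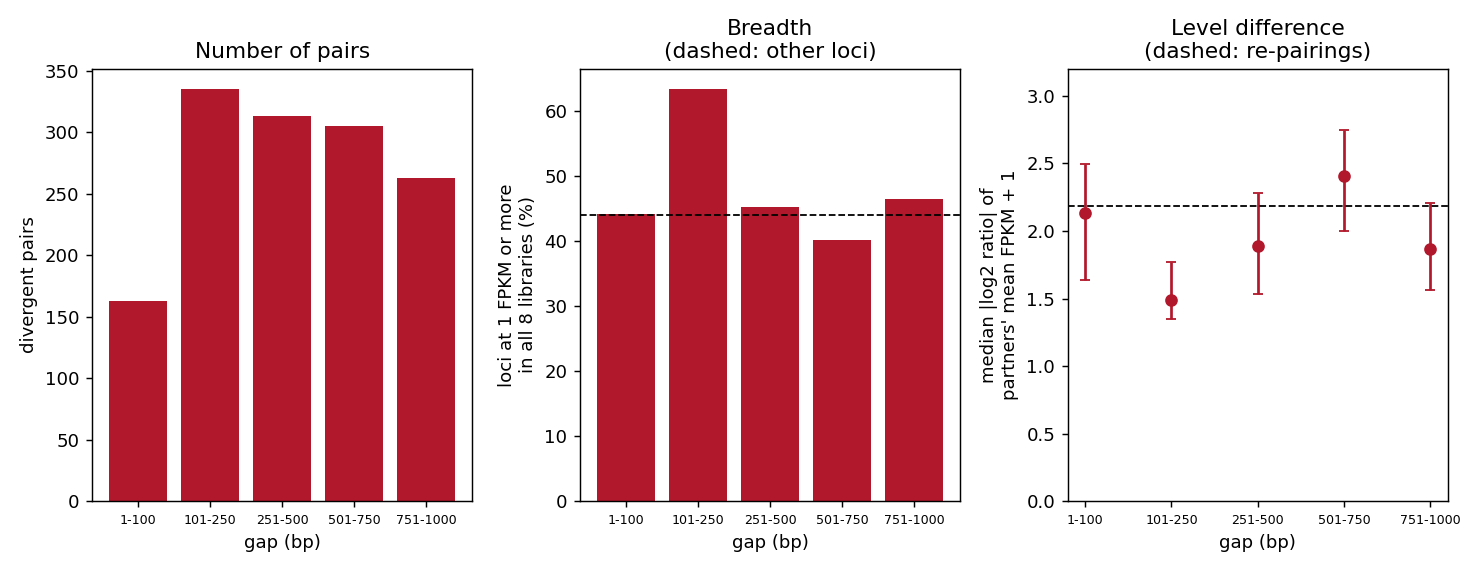
Divergent pairs by gap in bp (x axis of each panel): number of pairs, percent of their loci at 1 FPKM or more in all 8 libraries, and median absolute log2 ratio of the partners' mean FPKM + 1 with its 95% order-statistic interval. Pairs over 100 and up to 250 bp apart had the highest share of broad loci (63.3%) and the smallest level difference (1.49 on the log2 scale); dashed lines give other loci (43.9%) and re-paired members (2.18).

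Partners often differed in level. The median absolute log2 ratio of the partners' mean FPKM + 1 was 1.92 (95% order-statistic interval over pairs 1.76 to 2.08), which is 3.77-fold. Every pairing of a minus member with a plus member of another chromosome, 1641557 re-pairings in all, gave 2.18, or 4.53-fold. At gaps of over 100 to 250 bp the median was 1.49 (1.35 to 1.77), or 2.81-fold, and at over 500 to 750 bp it was 2.40 (2.0 to 2.75), or 5.30-fold. Partners lay within 2-fold of each other in 427 pairs (31.0%) and at least 16-fold apart in 260 pairs (18.9%), against 26.3% and 21.5% of re-pairings. Without the library labelled roots after flowering the median was 1.91. The minus locus was the more abundant one in 720 pairs. Intervals are for the median over pairs and treat pairs as independent, and they do not cover differences between plants.

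Member levels also varied by organ. Among inflorescence and seed libraries, the median over members was 6.51 FPKM in flower buds, 6.06 in flowers, 6.46 in milk grains and 5.02 in mature seeds. It was 5.88 FPKM in the earlier and 5.25 in the later leaf library, 4.13 in the earlier root library and 4.80 in the later library labelled roots. The median of other loci was 6.04 FPKM in flower buds, 5.63 in flowers, 5.40 in milk grains and 3.22 in mature seeds. It was 3.95 FPKM in the earlier and 3.79 in the later leaf library. In roots before flowering it was 4.92 FPKM and in the library labelled roots after flowering 3.66 FPKM. Members thus stood above other loci in every library but roots before flowering. Loci in convergent pairs stood higher still in every library, at 8.88 FPKM in leaves before flowering and 7.73 FPKM in mature seeds. In these bulk samples, fewer cells of a type and less RNA per cell cannot be told apart. The highest value of a member fell in mature seeds for 740 loci (27.4%, against 21.4% of other loci) and in roots before flowering for 303 loci (11.2%, against 18.2%). Both loci of a pair reached 1 FPKM in 813 pairs (59.0%) in flower buds, the most, and in 662 pairs (48.0%) in roots before flowering, the fewest. Of single members, 75.1% and 67.7% reached it in these libraries, and of other loci 72.9% and 69.2%. Whether the pair counts exceed what these single-locus shares give was not tested. A single locus of the pair did so in 445 to 543 pairs, depending on the library, the minus locus in 230 to 268 pairs and the plus locus in 203 to 283.

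Within a library, the levels of partners were weakly ordered together. Spearman's rho between minus and plus levels over 1379 pairs was 0.09 in roots before flowering, 0.13 to 0.14 in 6 libraries and 0.25 in mature seeds. Over same-strand pairs it was 0.22 to 0.37 and over convergent pairs 0.09 to 0.15. These values are across pairs within 1 library, where the points share depth and scaling.

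Co-expression was measured as Pearson's r between the partners' log2(FPKM + 1) over the 8 libraries. All 1379 pairs entered, since each locus of at least 300 bp in the table reached 1 FPKM in some library. The median r of divergent pairs was 0.26 (95% order-statistic interval 0.22 to 0.32), with quartiles at -0.18 and 0.66. Re-paired members of different chromosomes had a median of -0.02 and quartiles of -0.36 and 0.39, convergent neighbours a median of 0.02 (-0.01 to 0.06), and same-strand neighbours a median of 0.50 (0.47 to 0.52). Divergent pairs therefore lay between convergent and same-strand neighbours. Without the library labelled roots after flowering the medians were 0.27 for divergent, 0.48 for same-strand and 0.01 for convergent pairs, and -0.02 for re-pairings.

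**Figure D2:**
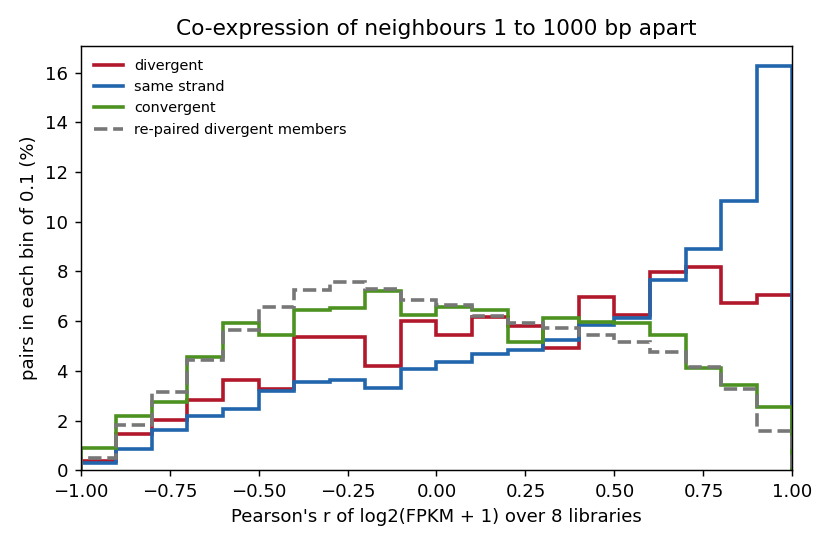
Distribution of Pearson's r of log2(FPKM + 1) over the 8 libraries (x axis) as percent of pairs in each bin of 0.1 (y axis), for divergent, same-strand and convergent neighbours 1 to 1000 bp apart and for re-paired divergent members. Divergent pairs (median 0.26) have fewer negative and more high values than re-pairings (median -0.02), and same-strand pairs (median 0.50) pile up towards 1.

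An r of at least 0.7 was found in 303 divergent pairs (21.97%, 95% exact binomial interval 19.8% to 24.3%), against 9.03% of re-pairings. The share was 36.0% of same-strand pairs (re-pairings 9.24%) and 10.1% of convergent pairs (re-pairings 8.84%). An r of -0.7 or less was found in 53 divergent pairs (3.84%, interval 2.89% to 5.0%), against 5.47% of re-pairings. Without the library labelled roots after flowering, 313 pairs reached 0.7, and 278 pairs did so in both settings, while 59 pairs had -0.7 or less, 49 of them in both. An r over 8 points can rest on 1 of them: 156 of the 303 pairs kept at least 0.7 whichever library was left out. These are 11.3% of divergent pairs, against 3.42% of re-pairings, 20.6% of same-strand pairs and 5.02% of convergent pairs. Leaving out mature seeds took the most pairs below 0.7, namely 66, and leaving out roots before flowering took 34.

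Across gap ranges, divergent medians of r lay between 0.17 and 0.33 and same-strand medians between 0.33 and 0.74. From the shortest to the longest gap range, the divergent medians were 0.32 (0.12 to 0.42), 0.30 (0.21 to 0.41), 0.33 (0.22 to 0.44), 0.21 (0.13 to 0.35) and 0.17 (0.11 to 0.27). The intervals of all 5 ranges overlap, so no order among neighbouring ranges can be read from them. Counting nearest neighbours only, the divergent medians were 0.34 (0.231 to 0.437), 0.29, 0.33, 0.15 and 0.16 (0.040 to 0.230). There the intervals of the shortest and the longest range just miss each other. Over all pairs, same-strand medians went from 0.74 (0.70 to 0.77) at 1 to 100 bp, through 0.65, 0.45 and 0.34, to 0.33 (0.27 to 0.37) at over 750 to 1000 bp. Convergent medians stayed between 0.00 and 0.09, and re-pairings of divergent members of the same gap range between -0.03 and 0.01. The share of divergent pairs at r of 0.7 or more was lowest at 1 to 100 bp, at 16.6% (11.2% to 23.2%), and between 20.5% and 23.9% in the 4 longer ranges. At the shortest gaps the same-strand share was 54.0%. Whether some same-strand pairs at short gaps are pieces of 1 transcript was not tested.

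**Figure D3:**
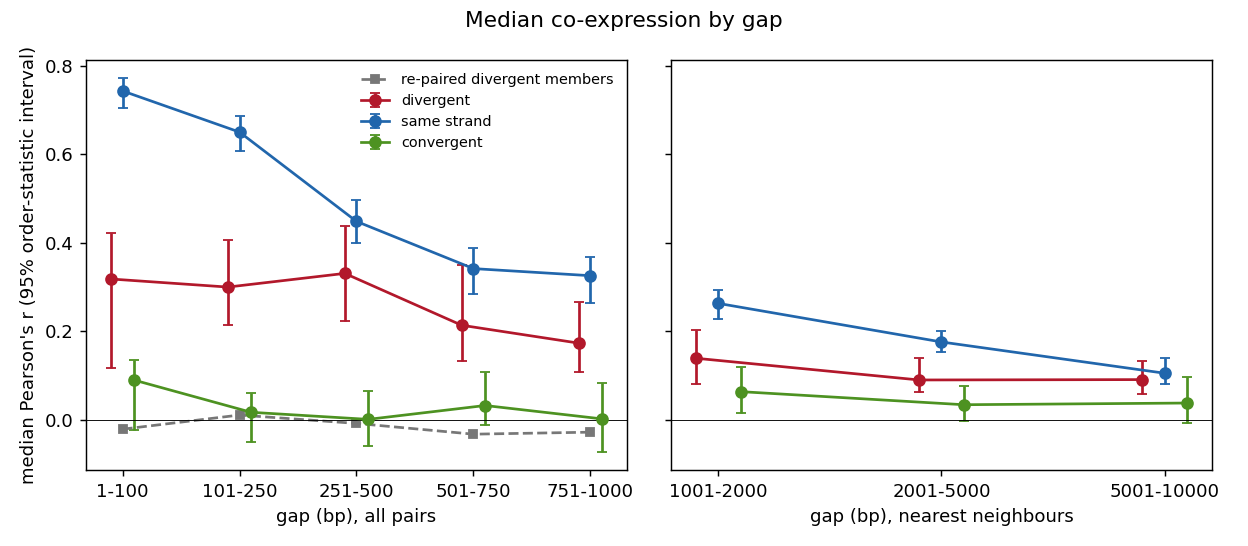
Median Pearson's r (y axis) with its 95% order-statistic interval by gap in bp (x axis): all pairs up to 1000 bp on the left, nearest neighbours beyond on the right, and re-paired divergent members as grey squares. Same-strand medians go from 0.74 to 0.33 within 1000 bp, while divergent medians go from 0.32 to 0.17.

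Beyond the limit of 1000 bp, counting nearest neighbours of at least 300 bp, the divergent median was 0.14 (0.08 to 0.20) over 738 pairs at over 1000 to 2000 bp. Just inside the limit, at over 750 to 1000 bp, nearest divergent neighbours had 0.16 (0.04 to 0.23) over 180 pairs. It was 0.09 over 1773 pairs at over 2000 to 5000 bp and 0.09 (0.06 to 0.13) over 1502 pairs at over 5000 to 10000 bp. Same-strand nearest neighbours had 0.26, 0.18 and 0.11 in the same ranges, and convergent ones 0.06, 0.03 and 0.04. At over 5000 to 10000 bp the divergent and same-strand intervals overlapped.

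Pairs of narrowly detected loci had the higher r. In 425 pairs where neither locus reached 1 FPKM in all 8 libraries, the median r was 0.50 (0.44 to 0.58), with 146 pairs (34.4%) at 0.7 or more, against -0.04 and 8.93% when those members were re-paired. In 569 pairs with 1 broad locus the median was 0.13 (0.08 to 0.21), against -0.02 for re-pairings. Of these pairs 17.4% reached 0.7, against 8.93% of re-pairings. In 385 pairs with both loci broad the median was 0.22 (0.16 to 0.28), and re-pairing gave 0.12, so broad members of different chromosomes also had a positive median. Of those 385 pairs 15.1% reached 0.7, near the 12.7% of their re-pairings. Same-strand pairs with neither locus broad had a median of 0.83 and convergent ones 0.08. Pairs in which both loci spanned at least 4-fold over the libraries had a median of 0.44 (0.35 to 0.51, 503 pairs).

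The distance between divergent and same-strand pairs depended on how abundant the loci were. Where the less abundant locus averaged under 1 FPKM, the median r was 0.28 for divergent pairs (450 pairs) and 0.70 for same-strand pairs (2051 pairs). Where it averaged at least 10 FPKM, divergent pairs had 0.27 (0.17 to 0.36, 327 pairs) and same-strand pairs 0.18 (0.14 to 0.22, 1262 pairs), with overlapping intervals. Convergent pairs of that abundance had 0.02. Re-pairing gave 0.11 for the abundant divergent members and 0.02 for the abundant same-strand members, so abundant divergent members of different chromosomes also had a positive median. Of the 327 abundant divergent pairs, 18.7% reached r of 0.7, against 13.8% of their re-pairings. In the gap range of over 750 to 1000 bp their median was 0.02 (-0.16 to 0.22, 64 pairs), where re-pairing gave 0.05, and in the 4 shorter ranges it lay between 0.25 and 0.43. At over 100 to 250 bp, which holds 130 of the 327 pairs, it was 0.25 (0.12 to 0.43), and the re-pairing value of 0.20 lies within that interval. Re-pairing gave 0.13, 0.10 and 0.02 in the other 3 ranges from short to long. At 1 to 100 bp abundant same-strand pairs had 0.47 (0.39 to 0.56, 92 pairs). Abundant divergent pairs had 0.36 (0.01 to 0.63, 29 pairs) there, and the intervals overlap. In the longer ranges the abundant same-strand medians were 0.23, 0.21, 0.12 and 0.14. The split by abundance and breadth was chosen after the data were seen.

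The same locus can be compared with its neighbour on either side. Of divergent members, 507 also had a same-strand neighbour 1 to 1000 bp away on the other side, at a median gap of 385 bp against 352 bp to the divergent partner. Their median r was 0.26 with the divergent partner and 0.45 with the same-strand neighbour, and the divergent partner had the higher r in 208 loci (41.0%). Another 416 members had a convergent neighbour on the other side. Their median r was 0.25 with the divergent partner and 0.05 with the convergent neighbour, and the divergent partner had the higher r in 247 loci (59.4%).

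Partners had their highest level in the same library in 355 pairs (25.7%, interval 23.5% to 28.1%), against 15.5% of re-pairings. Without the library labelled roots after flowering it was 27.5%. Over fewer libraries a shared peak can come more easily, and no re-pairing share is given for that setting. Over all 8 libraries the shares were 36.8% for same-strand pairs (re-pairings 15.0%) and 16.1% for convergent pairs (re-pairings 14.9%). Both loci peaked in mature seeds in 149 pairs (10.8%), against 7.41% of re-pairings, and in roots before flowering in 46 pairs (3.34%), against 1.26%. For flower buds it was 34 pairs (2.47%, re-pairings 1.17%), for leaves after flowering 26 pairs (1.89%, re-pairings 0.69%) and for flowers 5 pairs (0.36%, re-pairings 0.35%). Mature seeds thus held the most shared peaks, and flowers held about as many as re-pairing gave.

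Stage and organ changes were then counted as loci at least 4-fold apart on the FPKM + 1 scale that reached 1 FPKM in either library. In flowers against flower buds, 20 member positions were 4-fold higher, and in 0 of them was the partner also higher, which allows a share of up to 16.8% (upper end of the 95% exact binomial interval). Of all loci of at least 300 bp, 1.89% were higher, and of divergent members 0.63%. Among 48 positions that were lower (2.20% of all loci, 1.71% of divergent members), the partner was also lower in 0, which allows up to 7.40%. A member position counts a locus once for each pair it is in, and the intervals treat positions as independent. In same-strand pairs 11.2% (6.96% to 16.7%) of partners were also higher and 13.8% (9.19% to 19.5%) also lower, and the intervals overlap on the higher side but not on the lower. The zeros depend on the settings. With a pseudocount of 0.1, 15.4% of divergent partners were also higher (3.93% of all loci) and 17.1% also lower (4.76% of all loci). At a 2-fold limit it was 13.7% (6.57% of all loci) and 18.6% (8.81% of all loci).

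In flag leaves after against before flowering, 49 positions were higher, and in 10 of them (20.4%, interval 10.2% to 34.3%) the partner was also higher, from 5 pairs. Over all loci of at least 300 bp, 2.77% were higher, and of divergent members 1.78%. Of 53 positions that were lower (2.02% of all loci, 1.89% of divergent members), 2 (3.77%) had a partner also lower, from 1 pair. Same-strand pairs had 16.1% and convergent pairs 0% on that side. The divergent share was 10.1% with a pseudocount of 0.1 (4.45% of all loci) and 14.9% at a 2-fold limit (9.58% of all loci). No divergent pair moved 4-fold in opposite directions in leaves, and 4 of 5862 same-strand and 3 of 2509 convergent pairs did. With so few members called, this says little about divergent pairs.

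In mature seeds against milk grains, 256 positions were higher. The partner was also higher in 21.9% (interval 17.0% to 27.4%), from 28 pairs, against 7.87% of all loci and 9.27% of divergent members. In convergent pairs the share of partners also higher was 7.59% and in same-strand pairs 30.1%. Of 272 positions that were lower, 13.2% (9.44% to 17.9%) had a partner also lower, from 18 pairs. All loci stood at 12.8% and divergent members at 9.79%, both within that interval. In 19 of 1379 divergent pairs the partners moved 4-fold in opposite directions, against 48 of 5862 same-strand and 56 of 2509 convergent pairs. Whether 19 differs from what the members' own rates give was not tested. The lower share was 28.9% with a pseudocount of 0.1 (20.0% of all loci) and 31.2% at a 2-fold limit (26.5% of all loci), where the higher share was 33.2% (19.5% of all loci). How near the lower share lies to that of all loci thus depends on the settings.

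In roots against leaves, both before flowering, 191 positions were higher in roots. Of these, 26.2% (20.1% to 33.0%) had a partner also higher, from 25 pairs, against 13.5% of all loci and 6.79% of divergent members. Same-strand pairs had 30.3% (27.6% to 33.1%) and convergent pairs 19.1% (16.1% to 22.5%), and both intervals overlap the divergent one. Of 281 positions that were lower in roots, 18.5% (14.1% to 23.5%) had a partner also lower, against 9.30% of all loci, and 28.8% did at a 2-fold limit, against 19.6%. In 6 of 1379 divergent pairs the partners moved 4-fold in opposite directions, against 52 of 5862 same-strand and 44 of 2509 convergent pairs. Whether 6 differs from what the members' own rates give was not tested. The comparison of roots against leaves was added after the data were seen, because it does not use the doubted library. With that library, labelled roots after against before flowering, 248 positions were higher with 21.8% of partners also higher (8.90% of all loci), and 191 were lower with 28.3% of partners also lower (13.5% of all loci). Of divergent members, 9.12% were higher and 6.90% lower in that comparison. There same-strand pairs had 31.2% of partners also higher and 30.1% also lower, and convergent pairs 12.7% and 16.6%. Both root comparisons share the library of roots before flowering.

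**Figure D4:**
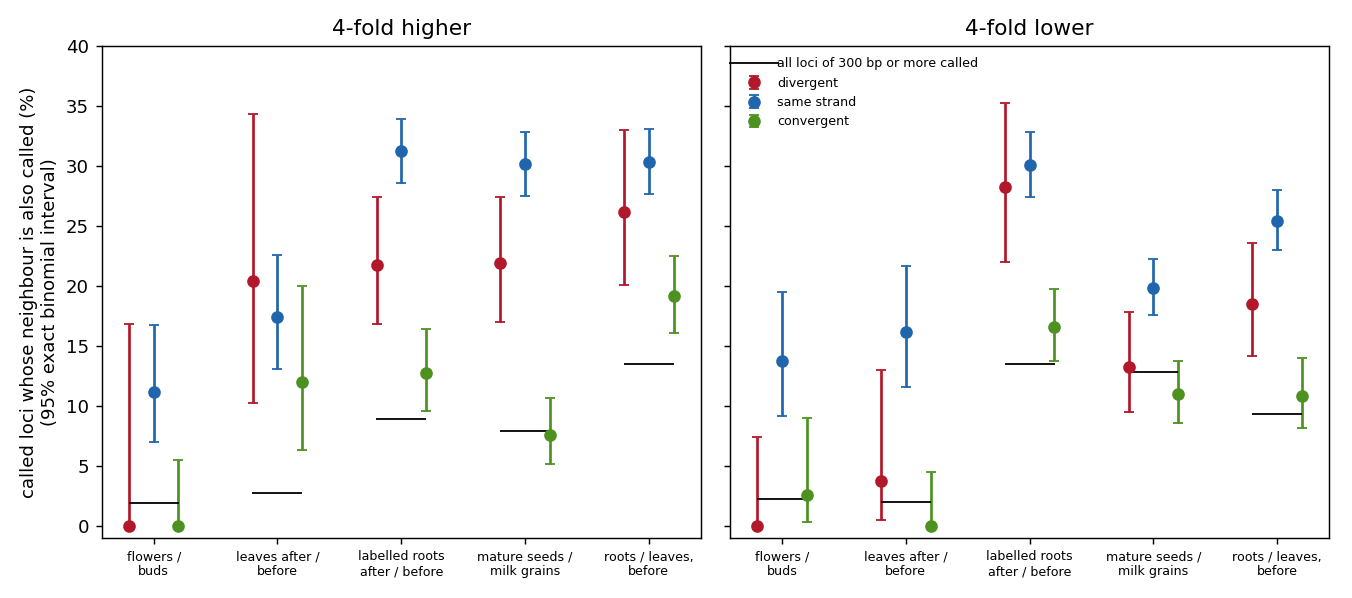
Percent of 4-fold higher (left) or lower (right) loci whose neighbour is also called (y axis), by comparison (x axis), for divergent, same-strand and convergent pairs, with 95% exact binomial intervals; black bars give the percent of all loci of at least 300 bp called. In mature seeds against milk grains the divergent share is 21.9% on the higher side, above 7.87% of all loci, and 13.2% on the lower side, beside 12.8%, a share that was 28.9% beside 20.0% with a pseudocount of 0.1.

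Individual pairs show how far partners ran together or apart. Among 270 pairs in which both loci reached 10 FPKM and spanned at least 4-fold, the pair with the highest and the pair with the lowest r of each gap range are described. They were chosen for r, so r is a description of them and supports nothing else.

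The highest r of the 270 pairs was in M_XLOC_000873 (chromosome 1, 839386 to 843042, minus strand) and P_XLOC_000110 (843530 to 847454, plus strand), 488 bp apart. The minus locus stood at 0.0119 FPKM in flower buds, 0.106 in flowers, 2.81 in the earlier and 31.3 in the later leaf library, 0.0388 in the earlier root library, 33.0 in the later library labelled roots, 1.20 in milk grains and 0.0788 in mature seeds. The plus locus stood at 0.0115, 0.184, 6.61, 75.5, 0.106, 66.8, 1.13 and 0.191 FPKM in the same order. Both were high in leaves after flowering and in the leaf-like library labelled roots and near 0 in buds, roots before flowering and mature seeds. Pearson's r was 0.996 and Spearman's rho 0.95, and r was 0.97 without the 2 libraries farthest from the median of the minus locus. Another locus touches the gap between them.

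A second leaf pair lies close by on chromosome 1, M_XLOC_000880 (861878 to 865960, minus strand) and P_XLOC_000115 (865966 to 869346, plus strand), only 6 bp apart. Levels of the minus locus were 6.18 FPKM in the earlier and 36.2 in the later leaf library, 30.2 in the library labelled roots after flowering, 4.59 in roots before flowering and between 0.256 and 1.59 elsewhere. The plus locus was at 12.5, 40, 40.5 and 1.83 FPKM in those 4 libraries and between 0.304 and 1.32 elsewhere. The r of this pair was 0.96, rho 0.93, and r without the 2 farthest libraries 0.85. Both pairs were thus leaf pairs. A divergent pair between them, M_XLOC_000876 and P_XLOC_000114, had r of 0.992. Before them, r was 0.836 in M_XLOC_000863 and P_XLOC_000106 and 0.341 in M_XLOC_000846 and P_XLOC_000094. After them, it was 0.888 in M_XLOC_000893 and P_XLOC_000127. High r was thus not confined to the 2 named pairs there, and levels of the other loci of that stretch were not compared here.

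At 566 bp, M_XLOC_029774 (chromosome 6, 3040092 to 3055522, minus strand) and P_XLOC_029048 (3056088 to 3056861, plus strand) followed each other in other organs. Its minus locus stood at 16.5 FPKM in flower buds, 52.0 in flowers, 23.8 in roots before flowering, 21.3 in milk grains, 2.77 in the earlier and 0.317 in the later leaf library, 0.265 in the library labelled roots after flowering and 2.52 in mature seeds. The plus locus was at 21.4, 65.4, 34.4 and 26.3 FPKM in the first 4 of these and between 0 and 1.17 in the others. The pair was thus high in flowers, roots and milk grains and low in leaves, with r of 0.96, rho of 0.86 and r of 0.95 without the 2 farthest libraries. Another locus touches the gap, and one of the pair's loci is also in another divergent pair.

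For 2 further pairs the high r leaned on 1 library. M_XLOC_030586 (chromosome 6, 11477293 to 11482898, minus strand) and P_XLOC_029830 (11483108 to 11486936, plus strand), 210 bp apart, were highest in mature seeds, at 40.7 and 36.1 FPKM. Elsewhere the minus locus was between 0 and 1.86 FPKM and the plus locus between 3.31 and 8.06 FPKM. Their r was 0.95, rho 0.78, and r without mature seeds 0.68.

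M_XLOC_004908 (chromosome 1, 42078682 to 42079137, minus strand) and P_XLOC_004182 (42080116 to 42080556, plus strand), 979 bp apart, stood at 22.3 and 160.3 FPKM in roots before flowering. In the other 7 libraries the minus locus was at 0.442 FPKM or less and the plus locus at 0.908 FPKM or less, with 6 of 7 plus values listed at 0. The r of 0.98 rests on roots before flowering, since rho was 0.33 and r without that library -0.04.

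The pair with the smallest gap among those 270 pairs was M_XLOC_038539 (chromosome 8, 27818240 to 27818962, minus strand) and P_XLOC_037999 (27818964 to 27819355, plus strand), with start and end 2 bp apart. Another locus touches the gap, and one of the pair's loci is also in another divergent pair. Their levels were highest in milk grains, at 39.1 and 12.2 FPKM. In flowers they stood at 23.6 and 2.53 FPKM, in flower buds at 2.86 and 4.25 FPKM, and both were listed at 0 in leaves before flowering and in mature seeds. The r was 0.83 and rho 0.81, and r was 0.65 without milk grains.

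Opposite profiles occurred at short gaps too. M_XLOC_008592 (chromosome 11, 6685599 to 6691786, minus strand) and P_XLOC_008140 (6692025 to 6698244, plus strand) are 239 bp apart, with another locus touching the gap. Levels on the minus strand were 32.2 FPKM in flower buds, 27.9 in flowers, 16.5 in the earlier and 9.24 in the later leaf library, 12.2 in the earlier root library, 7.51 in the later library labelled roots, 19.2 in milk grains and 35.5 in mature seeds. The plus locus was at 1.08, 0.169, 3.56, 6.98, 10.2, 11.1, 0.704 and 0.0646 FPKM in the same order. It was high where the minus locus was low, in both libraries labelled roots and in the later leaf library, and low in inflorescences and seeds. The r was -0.92, rho -0.90, and r without the 2 farthest libraries -0.86.

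M_XLOC_021505 (chromosome 3, 33447867 to 33451030, minus strand) and P_XLOC_020582 (33451805 to 33452411, plus strand), 775 bp apart, changed places in mature seeds. The minus locus stood at 0.589 FPKM in mature seeds and between 5.05 and 13.2 FPKM in the other 7 libraries, and the plus locus at 19.2 FPKM in mature seeds and between 0.186 and 3.48 FPKM in the others. Their r was -0.97, rho -0.90, and r without mature seeds and milk grains -0.83.

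A seed value alone set the r of M_XLOC_014015 (chromosome 2, 1034414 to 1039710, minus strand) and P_XLOC_013293 (1040393 to 1046183, plus strand), 683 bp apart. In mature seeds they stood at 44.6 and 4.02 FPKM, against 8.93 to 16.2 and 23.9 to 39.1 FPKM in the other libraries. The r was -0.89, but rho was -0.05 and r without the 2 libraries farthest from the median, mature seeds and milk grains, was 0.52.

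Of the 270 pairs, the lowest r at gaps of over 250 to 500 bp belonged to M_XLOC_003589 (chromosome 1, 29280126 to 29282901, minus strand) and P_XLOC_002847 (29283237 to 29283823, plus strand), 336 bp apart. The minus locus was highest in mature seeds at 87.0 FPKM and lowest in roots before flowering at 16.8 FPKM, where the plus locus was highest at 11.7 FPKM. The plus locus was listed at 0 in mature seeds. Their r was -0.86, rho -0.79, and r without the 2 farthest libraries -0.83.

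Among the 270 pairs, the lowest r at 1 to 100 bp was -0.61, with rho of -0.55, in M_XLOC_034694 (chromosome 7, 20739433 to 20749599, minus strand) and P_XLOC_034065 (20749666 to 20751833, plus strand), 67 bp apart. One of its loci is also in another divergent pair. Over all 163 pairs of that gap range, 7 (4.29%) had r of -0.7 or less. The minus locus was at 1.65 to 2.07 FPKM in the leaf libraries and the library labelled roots after flowering and at 7.39 to 13.8 FPKM in the others. The plus locus was highest in leaves before flowering, at 151 FPKM, and lowest in roots before flowering, at 22.2 FPKM. Without leaves before and after flowering r was -0.40.

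The most abundant of the 270 pairs, by the median of the lower locus, was M_XLOC_027631 (chromosome 5, 16302689 to 16306135, minus strand) and P_XLOC_026835 (16306507 to 16314564, plus strand), 372 bp apart. The minus locus was at 114 to 228 FPKM in 6 libraries, 389 FPKM in milk grains and 576 FPKM in mature seeds. The plus locus was at 30.9 FPKM in mature seeds and 70.5 to 189 FPKM elsewhere. Levels of both were thus high in every library while r was -0.35 and rho -0.14, and without mature seeds r was 0.53.

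**Figure D5:**
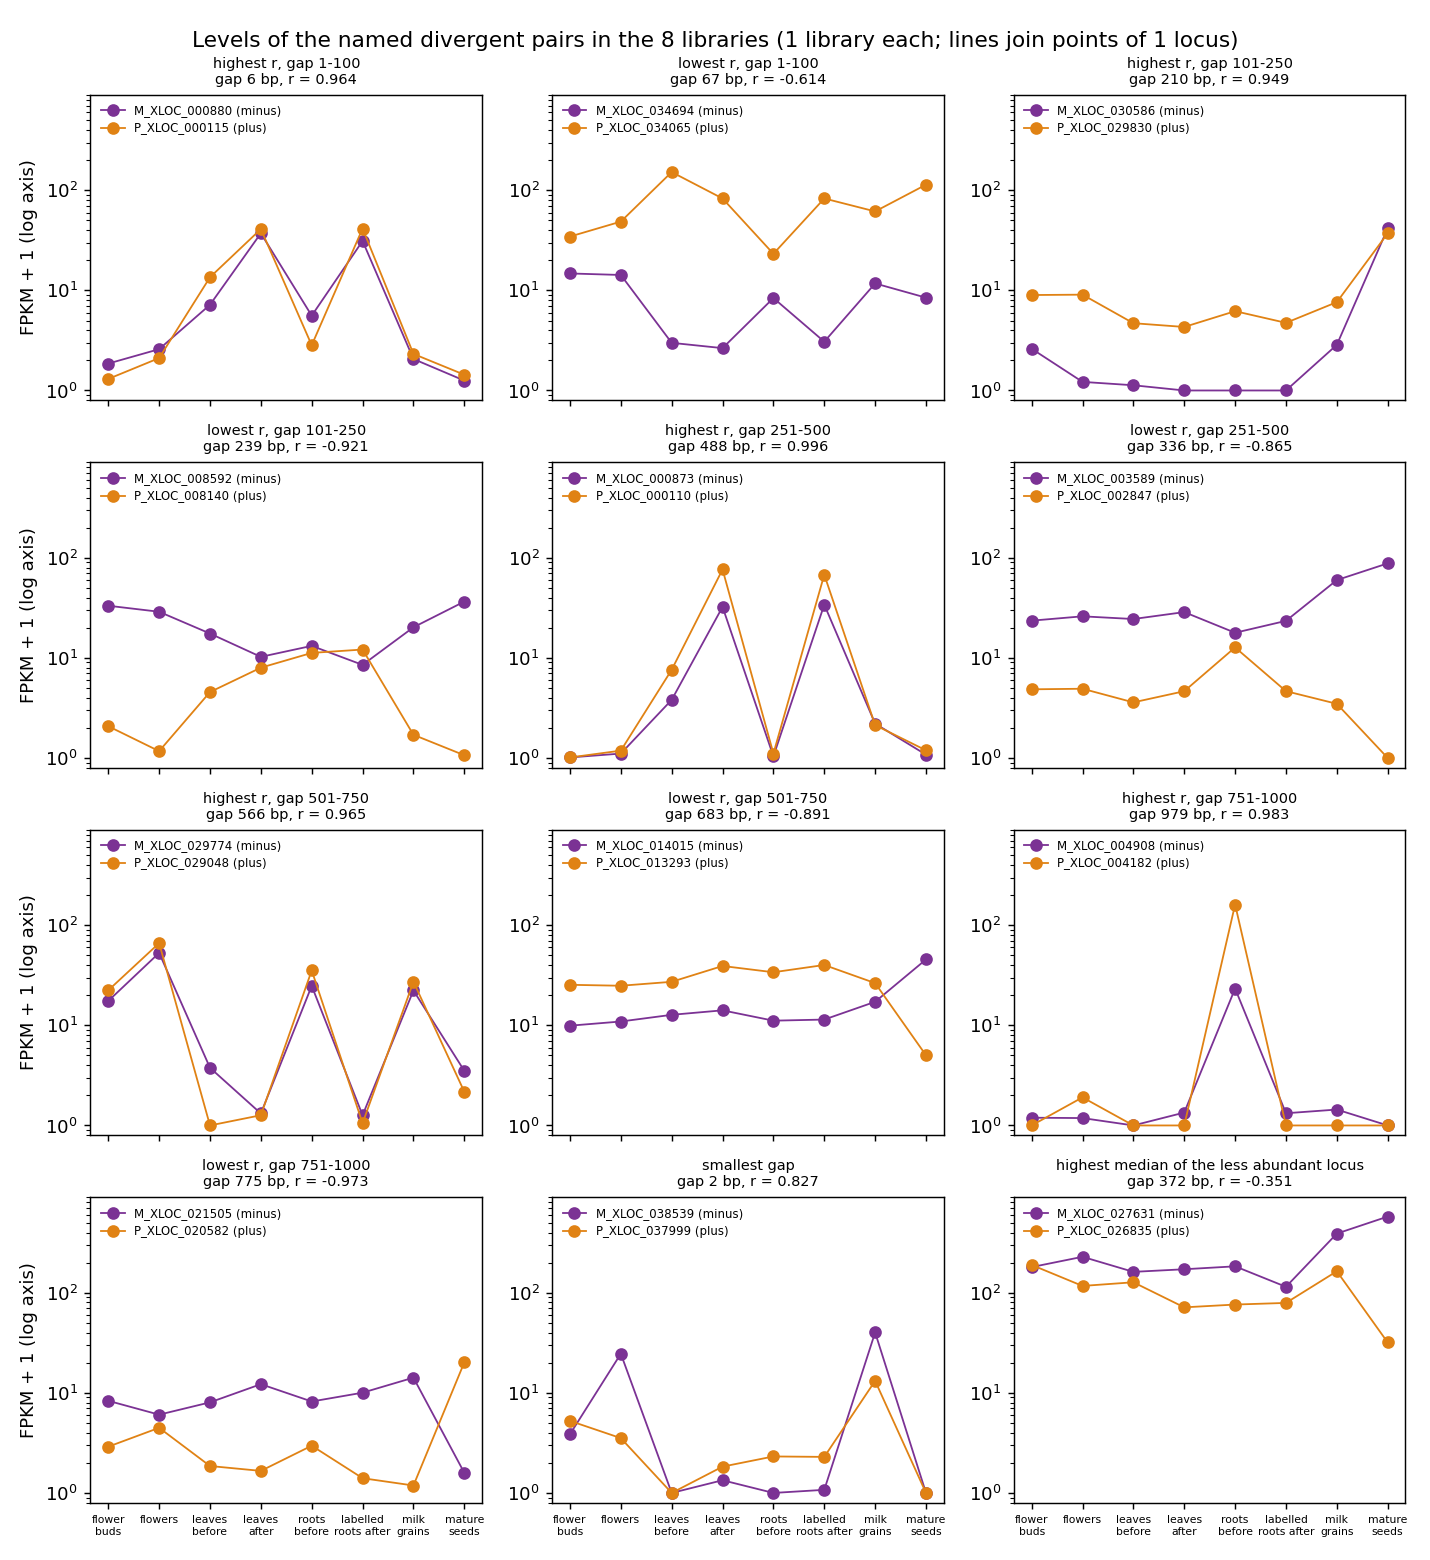
Levels (y axis, FPKM + 1 on a log axis) of the 12 named divergent pairs in the 8 libraries (x axis, 1 library each), with the minus locus in purple, the plus locus in orange, and the gap and r above each panel. The leaf pair 488 bp apart (r of 0.996) runs in parallel, and the pair 775 bp apart (r of -0.973) changes places in mature seeds.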

How the data were processed

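The authors deposited 1 table of FPKM for 8 libraries. Per the submitters' processing notes TopHat, Cufflinks and Cuffdiff were used, with no versions or settings given in the sources used here. Positions are on MSU Release 7 per the file headers. How the strands were scaled is not given, so levels of minus and plus loci may differ in scale. Pairs were found by position with Python 3.11.15, pandas 2.3.3 and numpy 2.4.6. Pearson's r was computed on log2(FPKM + 1), with a pseudocount of 1, which damps differences between low values. Re-pairing used every minus member with every plus member of another chromosome, with nothing drawn at random. Fold limits apply to FPKM + 1. Pair finding and r were tested on simulated data. Depth is unknown, so no counting interval is given for a level. Intervals of medians are order-statistic intervals over pairs, and those of shares are exact binomial intervals (scipy 1.17.1). The rule for named pairs took both loci at 10 FPKM or more in some library and spanning 4-fold, then the highest and lowest r in each of 5 gap ranges, the smallest gap, and the highest median of the lower locus. Members and rules were chosen with earlier results of these data known. Promoter sequences were not analysed here.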

Additional observations from a re-analysis of the deposited data

How the results depend on the processing

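No paired analysis was possible because each group has 1 library. Of 228 values recomputed under alternatives, 189 stayed within the interval of the reported value and 39 lay outside it. A sign change was called only where the reported interval excluded 0, and 0 were called. Re-pairings have no interval of their own and were judged by the width of the divergent interval. Their median of -0.02 did turn positive in some settings, such as 0.01 as Spearman's rho and 0.03 with both loci reaching 5 FPKM. Requiring 1 FPKM or no level gave the same pairs, since every locus reached 1 FPKM, so those values could not move and are among those within. Leaving out the library labelled roots after flowering entered both as its own setting and as a leave-one-out setting, with the same values. Leaving out 1 library at a time gave medians of r from 0.27 to 0.29 for divergent pairs, 0.48 to 0.52 for same-strand pairs, 0.0090 to 0.059 for convergent pairs and -0.02 to 0.00 for re-pairings. It gave 0.27 to 0.35 at gaps of 1 to 100 bp, 0.16 to 0.21 at over 750 bp, 23.7% to 30.0% for a shared peak library and 21.9% to 26.0% for r of at least 0.7.

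With both loci spanning 4-fold the medians were 0.44 for divergent, 0.62 for same-strand and 0.075 for convergent pairs, 0.47 at gaps of 1 to 100 bp and 0.39 at over 750 bp, with 30.6% sharing a peak library and 31.0% at r of 0.7. The same-strand median was 0.35 with both loci reaching 5 FPKM, 0.43 as Spearman's rho, 0.39 at a minimum length of 500 bp, 0.40 with no other locus in the gap and 0.45 with no locus in several pairs. With rho, 17.2% of divergent pairs reached 0.7. Averaging the 3 leaf-like libraries gave 30.8% for a shared peak library. With fewer points a shared peak can come more easily. This share and the leave-one-out shares therefore cannot be set against the re-pairing share over 8 libraries. The level ratio was 2.30 with a pseudocount of 0.1 and 1.63 with both loci reaching 5 FPKM. With both loci averaging 10 FPKM, added after the data were seen, the values were 0.18 for same-strand pairs, 0.11 for re-pairings, 0.025 at gaps of over 750 bp, 18.7% at r of 0.7 and 1.13 for the level ratio.

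At a 2-fold limit the partner was also lower in 18.6% for flowers against buds (8.81% of all loci of at least 300 bp were lower at that limit), 14.9% for leaves (9.58%), 31.2% for mature seeds (26.5%) and 28.8% for roots against leaves (19.6%), and also higher in 31.5% for labelled roots (20.7%) and 33.2% for mature seeds (19.5%). With a pseudocount of 0.1 it was also lower in 17.1% for flowers against buds (4.76% of all loci), 28.9% for mature seeds (20.0%) and 26.5% for roots against leaves (13.9%), and also higher in 29.2% for labelled roots (14.2%). At a minimum length of 500 bp the lower share for mature seeds was 9.18% (13.3% of all loci), and with no other locus in the gap that for leaves was 0% of 36 positions. The cause was not tested. Median-ratio rescaling shifted the median log2 ratio of all loci by -0.22 for labelled roots and by 0.18 for roots against leaves, and every reported value stayed within its interval. Unknown depth limits what can be said of loci listed at 0.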
